A study of Mus musculus with 6 samples.

Results

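Replication-dependent histone genes encode the core histones H2A, H2B, H3 and H4 and the linker histone H1, and 61 of them were followed here among the 19423 protein-coding genes of a mouse ovary data set. Members were chosen by gene symbol alone: a symbol that begins with H2ac, H2bc, H3c or H4c and a digit, or one of the linker genes H1f1 to H1f6, whose older names begin with Hist1h or Hist2h. They comprised 6 H1, 17 H2A, 16 H2B, 11 H3 and 11 H4 genes, of which 52 lay in the cluster on chromosome 13 and 9 in the smaller cluster on chromosome 3. H4bc24, H2aw and H2bu2 have older names that begin with Hist1h or Hist3h but current symbols outside this rule, and were not counted as members.

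RNA sequencing was done on ovaries of female balb/c-nude mice, an immunodeficient strain without a working thymus, 3 labelled control and 3 labelled tumor, all on day 80. The tumor mice had received a subcutaneous injection of cells that the labels spell MBA-MD-231. That cell line label is constant, but the treatment label counts its last digit upward from tumor replicate 1 to 3. No treatment of the control mice is given, and no label names animals or litters, so p-values measure the spread between these samples, which may be technical. The series title asks about follicle loss in breast cancer, and the comparison here asks how histone mRNA differed between tumor and control ovaries.

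Most histone protein is made during S phase, when newly copied DNA must be packed into nucleosomes, and the clustered genes supply it. Their mRNAs usually end without a poly(A) tail in a short stem-loop, which the stem-loop binding protein holds and the U7 small nuclear ribonucleoprotein helps to cut. Some cluster genes also give longer polyadenylated transcripts in cells that have stopped dividing. How RNA was selected for these libraries is not given, so whether the values below cover stem-loop mRNAs, polyadenylated mRNAs or both cannot be told apart. In the ovary, granulosa cells of growing follicles divide, while luteal cells of the corpus luteum mostly do not and oocytes store histone mRNA.

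The stem-loop is shown first because it defines the class, and because it separates the H4 genes from the others by letters. The search used the arm GGNNCT, the loop TTTN and the arm AGNNCC in a row, sense strand only, with the arms able to pair, in GENCODE M21 transcripts matched by gene number (all 61 matched). It was found in 39 members, or 63.9%, against 7 of 18616 other genes, or 0.0376%. The capitals mark the whole element, and each variant is named after an abundant member that carries it.
H2ac24, H2ac18, H1f2 and H3c15: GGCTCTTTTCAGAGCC
H2ac20: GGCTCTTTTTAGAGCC
H4c8: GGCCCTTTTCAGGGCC
H4c9: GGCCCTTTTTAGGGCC
The first form stood in 23 members, and none of them was an H4 gene. The H4c8 form stood in 5 members and the H4c9 form in 2, all of them H4 genes. Further forms were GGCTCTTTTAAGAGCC in 6 members and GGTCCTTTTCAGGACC in 2. The transcripts of H2bc4, H2bc21 and H2bc23 held no match, which says only that these letters were not in those models. Transcript models ended 3 bases after the element in H2ac24 and 35 in H2ac18, but 377 in H3c15 and 840 in H1f2.

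Promoters are shown for H2ac18, the member with the highest mean FPKM over all 6 libraries, and for H2ac24 and H2bc23, whose promoters share letters. H2ac24 was higher in tumor, while H2bc23 was lower but not called (edgeR adjusted p of 0.103). Each of these genes has a near-identical copy, as described below. RefSeq windows on GRCm38.p6, from 250 bases before to 50 bases after the annotated start, were found for 56 of the 61 members. Printed are bases before the RefSeq start, from 250 to 1 for H2ac18 and H2bc23 and from 250 to 33 for H2ac24, with CCAAT on either strand (CCAAT or ATTGG) in capitals. The H2ac18 run covers chr3:96245247-96245496 on the plus strand, the H2ac24 run chr13:21833508-21833725 on the minus strand and the H2bc23 run chr13:21810200-21810449 on the minus strand. The H2bc23 run overlaps the deposited interval of H2ac23, chr13:21810367-21810918 on the plus strand.
H2ac18: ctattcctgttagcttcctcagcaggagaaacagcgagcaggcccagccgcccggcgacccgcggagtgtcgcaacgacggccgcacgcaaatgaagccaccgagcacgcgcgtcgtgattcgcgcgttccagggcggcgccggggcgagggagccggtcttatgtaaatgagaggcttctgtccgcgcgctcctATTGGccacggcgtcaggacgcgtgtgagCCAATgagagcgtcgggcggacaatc
H2ac24: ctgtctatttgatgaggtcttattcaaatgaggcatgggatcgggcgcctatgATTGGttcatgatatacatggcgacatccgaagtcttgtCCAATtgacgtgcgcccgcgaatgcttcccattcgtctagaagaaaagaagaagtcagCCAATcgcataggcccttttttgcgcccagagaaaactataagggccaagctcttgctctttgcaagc
H2bc23: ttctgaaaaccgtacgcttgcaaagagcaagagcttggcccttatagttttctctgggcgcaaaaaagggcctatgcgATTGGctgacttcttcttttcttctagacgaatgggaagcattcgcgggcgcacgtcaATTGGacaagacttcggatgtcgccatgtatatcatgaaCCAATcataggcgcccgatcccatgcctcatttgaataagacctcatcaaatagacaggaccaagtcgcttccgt
The H2ac24 window matched the H2bc23 window over 233 of 233 bases, read on the opposite strand, and the window of H2ac23 over 200 of 200 bases on the same strand; with H2ac18 it matched at 92 of 295 bases. CCAAT, a box bound by the factor NF-Y, was in the full windows of all 6 H1, 17 H2A, 14 H2B and 9 H3 genes with a promoter and in 3 of 10 H4 genes, against 41.1% of 27025 genes. ATTTGCAT, the octamer bound by Oct1 and its relatives, stood in 6 of 17 H2A and 7 of 14 H2B genes and in none of the others, against 1.97% of all genes. TATAAA was found in 58.9% of members and 15.7% of all genes. AAACACA, an element known from H1 promoters, was in 5 of 6 H1 genes and in 8.22% of all genes. Both strands were searched for each of these motifs, none of which contains another, and a match is a description of the letters, not a binding site.

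Estimated counts per library summed to between 18278614 and 19238900. Tumor replicate 1 stood apart from tumor replicates 2 and 3 on the first principal component, at -34.6 against 49.6 and 75.1. On that component control replicates 1, 2 and 3 lay at -42.8, -42.1 and -5.23. On the second component tumor replicate 1 lay at -66.5, tumor replicates 2 and 3 at -2.34 and -6.25, and the control replicates at 32.9, 2.36 and 39.8. The Spearman correlation of tumor replicate 1 was 0.949 and 0.945 with tumor replicates 2 and 3. With the control replicates it was 0.942, 0.961 and 0.939. Ovarian identity was checked with cell type markers: all 18 oocyte markers, 12 granulosa and 11 luteal markers passed the filter on low counts. Summed luteal markers ranged from 15935 to 16625 CPM in control and from 2788 to 9383 CPM in tumor (CPM are counts scaled to library size, with TMM factors), and summed oocyte markers from 591 to 761 CPM and from 1002 to 1135 CPM. Granulosa markers summed to 5437, 4650 and 5460 CPM in control and to 4251, 6999 and 7133 CPM in tumor, so the groups overlapped. Adipocyte markers summed to between 871 and 1209 CPM in control and to 12406, 1175 and 5159 CPM in tumor replicates 1, 2 and 3. Oviduct markers summed to 2432, 2455 and 616 CPM in control replicates 1, 2 and 3 and to 2390, 230.3 and 114.0 CPM in the tumor replicates. In whole tissue, fewer cells of a type and less RNA per cell cannot be told apart, and the part of these markers in the histone results was not tested.

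Few histone cluster genes carried most of the signal. A member was called detected in a group when its estimated count was at least 3 in all 3 libraries of the group, 3 being the most that a count of 0 leaves room for (0.156 to 0.164 CPM, for counting error only). By this rule 17 members were detected in control, 13 in tumor and 10 in both. Those in both were H1f2, the H2A genes H2ac18, H2ac20 and H2ac24, the H2B genes H2bc4, H2bc6 and H2bc21, the H3 gene H3c15 and the H4 genes H4c8 and H4c9. Detected in control alone were H1f4, H2ac8, H2bc1, H2bc23, H3c4, H3c6 and H4c12, and in tumor alone H2ac11, H2ac13 and H2ac23. Many of these calls rest on low counts. H4c12, for example, was counted at 3.79, 7.64 and 13.3 in control and at 17.1, 5.69 and 2.93 in tumor, so the groups overlapped. H2bc23 is an exception, with over 100 counts in each control library, and its counts are given below with those of a near-identical copy. The other 41 members were detected in neither group. None of the 61 was at 0 in all 6 libraries, 17 were above 0 in every library and 8 never reached 3 counts.

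**Figure D1:**
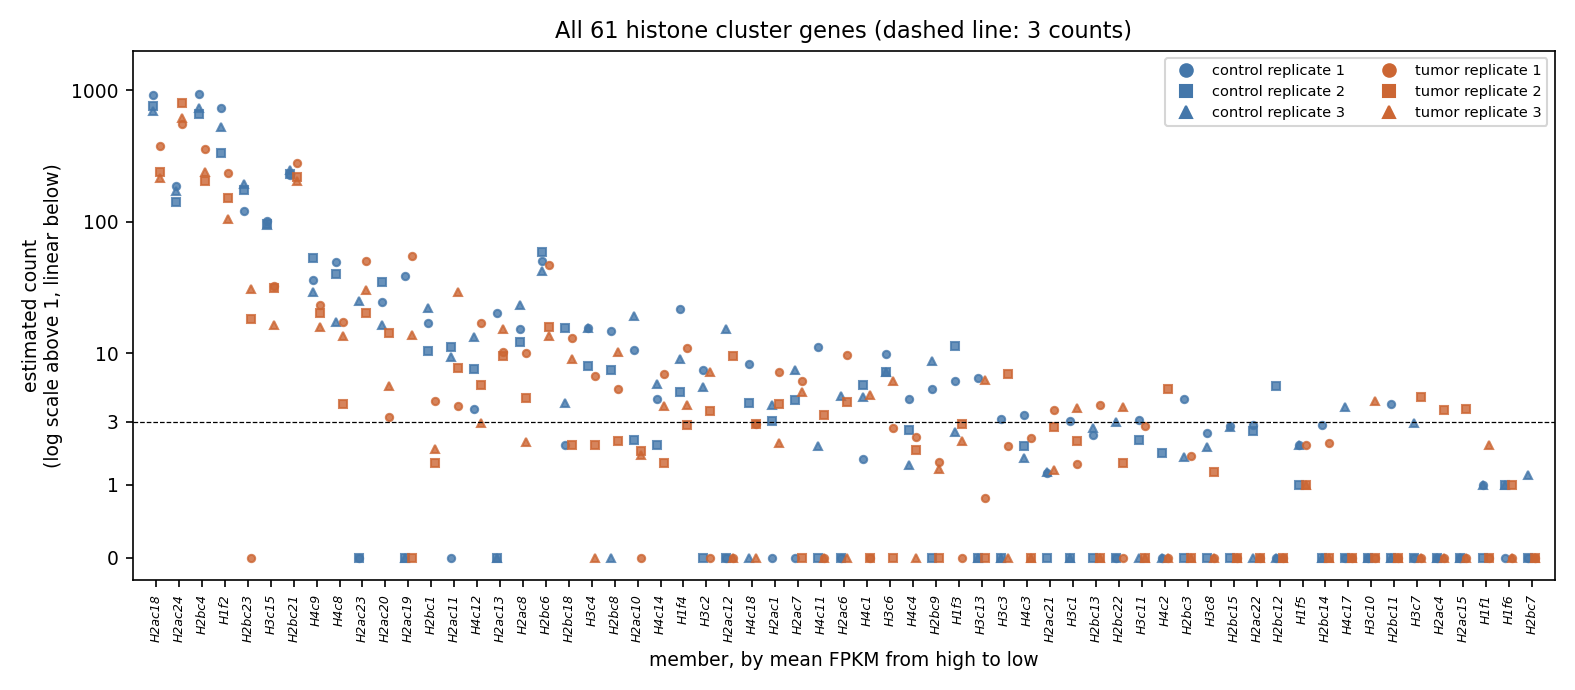
Estimated count (vertical axis, log scale above 1 and linear below) of all 61 histone cluster genes in each of the 6 libraries, ordered from left to right by mean FPKM over the libraries. The first 8 genes hold most of the counts, and to their right most genes lie near the dashed line of 3 counts.

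Members as a whole took fewer reads in tumor than in control ovaries. All 61 together were counted at 3647, 2718 and 3018 in control and at 2178, 1851 and 1650 in tumor, or 189.5, 144.5 and 158.6 against 119.2, 100.8 and 89.3 CPM before TMM factors. Every tumor library lay below every control library. The 8 most abundant members by FPKM, the deposited level scaled to transcript length and library size, held between 85.5% and 91.2% of these counts. H2ac24 alone held 5.14%, 5.19% and 5.68% of the histone counts in control, and 25.6%, 43.4% and 37.2% in tumor. Per length, control ovaries had most H2ac18, at 81.9 ± 10.9 FPKM (SD, n = 3), then H2bc4 at 60.3 ± 10.1, H1f2 at 41.4 ± 15.1, H2ac24 at 21.7 ± 2.85 and H2bc23 at 15.6 ± 6.05 FPKM. Tumor ovaries had most H2ac24, at 88.8 ± 17.4 FPKM, then H2ac18 at 29.9 ± 9.47, H2bc4 at 21.5 ± 6.42 and H1f2 at 13.3 ± 5.40 FPKM. Within each group, the neighbours H2bc4 and H1f2, and H2ac18 and H2bc4, lay within about the sum of their SDs, but in each of the 6 libraries H2ac18 was above H2bc4 and H2bc4 above H1f2. Every tumor library had more H2ac24 than H2ac18.

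Of the 61 members, 15 passed the filter on low counts: 1 H1, 7 H2A, 4 H2B, 1 H3 and 2 H4 genes. In edgeR's quasi-likelihood test with Benjamini-Hochberg adjustment over all 15787 tested genes, 4 of the 15 passed the threshold of 0.05, against 7.71% of all tested genes. H2ac18, H2bc4 and H3c15 fell (3.91% of all tested genes did) and H2ac24 rose (3.8%). Groups did not overlap in 10 of the 15, 9 lower and 1 higher in tumor, where 18.4% and 19.8% of all tested genes did so in each direction. The median log2 fold change of the 15 was -1.53, and that of all tested genes -0.02. A member can pass the filter through its higher group, so these counts describe the 15 and not the other 46.

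**Figure D2:**
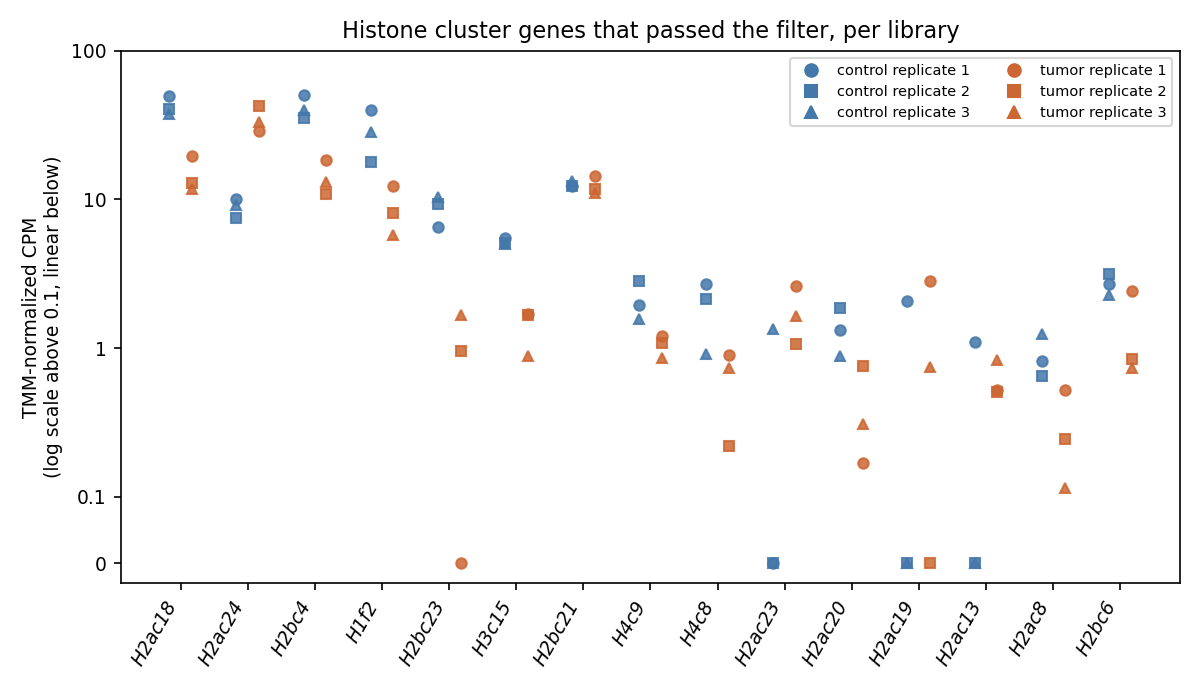
TMM-normalized CPM (vertical axis, log scale above 0.1 and linear below) of the 15 members that passed the filter, by library, with control in blue and tumor in orange. H2ac18, H2bc4, H1f2, H2bc23 and H3c15 have all tumor libraries under all control libraries, H2ac24 has them above, and those of H2bc21 overlap.

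The linker histone was represented by H1f2, known as histone H1.2, which binds DNA where it enters and leaves the nucleosome. H1f2 (gene 50708; chr13:23738807-23739531, plus strand, GRCm38.p6, as in the deposited annotation) was measured at 39.8, 17.9 and 28.5 CPM in control and at 12.3, 8.06 and 5.77 CPM in tumor. The groups did not overlap, and the control libraries differed among themselves by more than the tumor libraries. Its log2 fold change of -1.72 ± 0.39 (SE) had an edgeR adjusted p of 0.0507, just outside the threshold. The gene passed without control replicate 2 (0.0350), without tumor replicate 1 (0.0331) and with DESeq2 (0.000283), and did not pass in the other 12 alternatives, where the highest adjusted p was 0.172, without control replicate 1. Only 8.54% of the 50-base stretches of its GENCODE transcript of 1560 bases occur in another gene, 50 bases being the length of a read. The deposited interval of H1f2 is shorter, so the share of the counted transcript may be higher, which was not measured. The other 5 H1 genes did not pass the filter.

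Among the H2A genes, which encode the histone of the outer dimers of the nucleosome, the leading members moved apart. H2ac18 (gene 15267; chr3:96243550-96246380, plus strand, in the deposited annotation, a wider interval than RefSeq's, which also covers the antisense gene Gm20633 and the promoter bases printed above) was measured at 49.5, 40.3 and 37.7 CPM in control and at 19.6, 12.8 and 11.8 CPM in tumor. All control libraries were above all tumor libraries. This was a fall by 1.53 ± 0.22 (SE) on the log2 scale, 2.89-fold, with an edgeR adjusted p of 0.0343. H2ac24 (gene 319171; chr13:21833024-21833475, minus strand) was measured at 10.1, 7.53 and 9.21 CPM in control and at 28.9, 42.8 and 33.4 CPM in tumor. All tumor libraries were above all control libraries, with tumor replicate 2 highest. The gene rose by 1.97 ± 0.19 (SE) on the log2 scale, 3.91-fold, with an edgeR adjusted p of 0.0245.

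The remaining 5 tested H2A genes were measured near 1 CPM and did not pass. H2ac20 lay at 1.32, 1.87 and 0.881 CPM in control and at 0.169, 0.758 and 0.308 CPM in tumor, with no overlap and an adjusted p of 0.113 by edgeR. H2ac8 had a log2 fold change of -1.56, at an adjusted p of 0.124 by edgeR. Both lay lower in tumor in every library. H2ac23 had a log2 fold change of 1.96 ± 1.37 (SE) and 2 control libraries at 0 counts, while H2ac13 and H2ac19 both had 0.78 with errors of 1.32 and 1.85 (SE). The direction of these 3 is not settled by their errors, and that of H2ac19 turned to -0.88 without tumor replicate 1.

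H2B genes encode the partner of H2A in the dimer. H2bc4 (gene 68024; chr13:23684199-23692480, plus strand) was measured at 50.5, 35.5 and 39.8 CPM in control and at 18.5, 10.9 and 13.1 CPM in tumor. No tumor library reached a control library. H2bc4 fell by 1.56 ± 0.23 (SE) on the log2 scale, 2.96-fold, with an edgeR adjusted p of 0.0343. Nearly all of its counts were assigned to a single deposited transcript, NM_023422.3, with 934.1, 664.0 and 739.9 in control and 357.0, 199.4 and 241.1 in tumor.

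H2bc21 (gene 319190; chr3:96221072-96223738, plus strand), whose GENCODE transcript is 2620 bases long against a median of 530 over the members, was measured at 12.3, 12.2 and 13.3 CPM in control and at 14.5, 11.7 and 11.1 CPM in tumor. Its groups overlapped, and tumor replicate 1 was the highest library. The log2 fold change was -0.02 ± 0.16 (SE), with an edgeR adjusted p of 0.947, and its sign changed with the setting. None of its 50-base stretches occurs in another gene, so no copy could take its reads. H2bc6 had a log2 fold change of -0.99 ± 0.49 (SE), at an adjusted p of 0.224 by edgeR. Its tumor replicate 1, at 2.43 CPM, lay within the control range of 2.26 to 3.15 CPM, and tumor replicates 2 and 3 lay lower at 0.842 and 0.737 CPM.

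H2bc23 (gene 665596; chr13:21806412-21810199, minus strand) was measured at 6.5, 9.38 and 10.4 CPM in control and at 0, 0.965 and 1.67 CPM in tumor. The groups were far apart and tumor replicate 1 had no count at all. Its log2 fold change of -3.30 ± 1.07 (SE) had an edgeR adjusted p of 0.103. The gene passed without tumor replicate 1 (0.0258) and with DESeq2 (0.00624). H2bc23 is a case where a near-identical copy bears on the value, as described below.

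H3 and H4 form the tetramer at the centre of the nucleosome, and their cluster genes were sparse here. H3c15 (gene 97114; chr3:96238479-96239127, minus strand) was measured at 5.51, 5.11 and 5.06 CPM in control and at 1.70, 1.67 and 0.889 CPM in tumor. The control libraries were close together and all above the tumor libraries. H3c15 fell by 1.88 ± 0.32 (SE) on the log2 scale, 3.68-fold, with an edgeR adjusted p of 0.0366. H4c9 (gene 319158; chr13:22040960-22041362, minus strand) was measured at 1.94, 2.82 and 1.57 CPM in control and at 1.2, 1.08 and 0.854 CPM in tumor. Its groups did not overlap, but the log2 fold change of -1.01 ± 0.33 (SE) had an adjusted p of 0.0951 by edgeR. H4c8 had -1.62 ± 0.61 (SE), at an adjusted p of 0.134. The other 10 H3 and 9 H4 genes did not pass the filter.

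**Figure D3:**
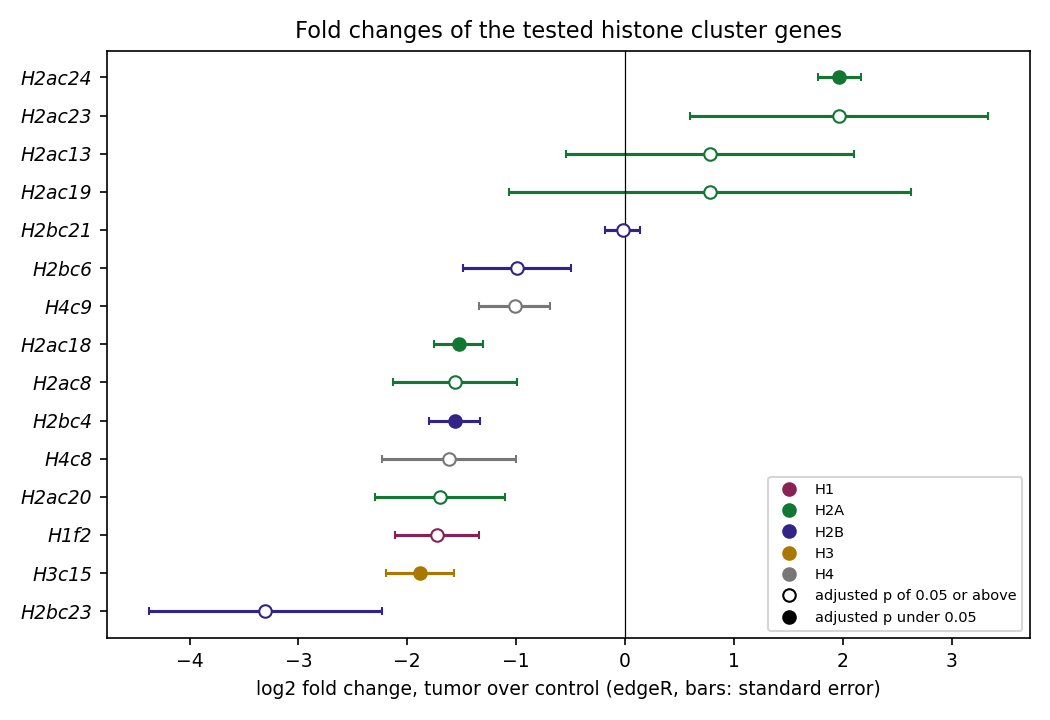
Log2 fold change, tumor over control (horizontal axis), of the 15 tested members from edgeR, with the standard error as bars, coloured by histone family; filled points have an adjusted p under 0.05. H2ac24 stands at 1.97, H2bc21 at -0.02 and the 3 members that fell between -1.88 and -1.53.

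The 4 calls rest on small groups. Each of the 4 ended without control replicate 1, control replicate 3, tumor replicate 2 or tumor replicate 3, with adjusted p between 0.0602 and 0.145, while the log2 fold changes stayed between -2.01 and -1.38 for the 3 that fell and between 1.80 and 2.09 for H2ac24. With an offset for gene length, H2ac18 (-1.16, adjusted p of 0.0544) and H3c15 (-1.54, 0.0638) were no longer called. Without tumor replicate 1, 8 of the 15 passed by edgeR, where 16.6% of all tested genes did: H2ac8, H2bc6, H1f2 and H2bc23 were added, and the 7 called lower compare with 9.77% of all tested genes. DESeq2 called 6 of the 15 (19.0% of 15764 genes), adding H1f2 and H2bc23, with 5 lower (9.38% of those genes). In the authors' deposited table, H1f2, H2ac18, H2bc4, H2bc23 and H3c15 had log2 fold changes of -1.71, -1.52, -1.55, -3.32 and -1.89 and H2ac24 one of 1.98, each with q under 0.05. H2bc1 also had q under 0.05 there (0.0396; log2 fold change of -3.02), so that 7 of the 61 members passed, as did 14.7% of the 19327 genes with a q in that table (7.3% with a negative log2 fold change). H2bc1, named after its values were seen, lay at 0.910, 0.551 and 1.19 CPM in control and at 0.225, 0.0783 and 0.102 CPM in tumor and did not pass the filter. With no filter edgeR called it too, with 5 of the 61 members called (4.94% of 19358 genes) and 4 of them lower (2.68%).

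Near-identical copies make single histone genes uncertain, because a read of 50 bases may come from either copy. In the GENCODE transcripts, over 50% of the 50-base stretches were shared with another gene in 32 of the 61 members, and over 90% in 11. H2ac24 shared 93.1% with other genes, most with H2ac23, and H2ac18 shared 89.2% with H2ac19 and all of its stretches with Gm20633, an antisense gene. Whether counting used strand is not given in the sources used here, so reads of H2ac18 and of its antisense partner cannot be told apart. H2bc4 shared 30.6%. H3c15 shared 63.5%, all of it with both Hist2h3c1 and Gm20634, neither among the 61 members. That share was taken over a GENCODE transcript of 1020 bases. The deposited interval of H3c15 is shorter, so the share of the counted transcript may be higher, which was not measured. Reads from the shared stretches cannot be assigned to H3c15 with certainty, and no sum with Hist2h3c1 was made.

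H2bc23 shared 97.3% of its stretches with a gene listed as H4bc24, whose older name is Hist1h2br and whose symbol falls outside the rule. H4bc24 was counted at 55.2, 0.84 and 0.01 in control and at 81.6, 26.6 and 23.6 in tumor, where H2bc23 was counted at 120.4, 175.5 and 192.8 and at 0, 18.1 and 30.6. The counts were split differently between the copies from library to library, most plainly in tumor replicate 1, where H4bc24 held all of them. Their sum was steadier, at 9.48, 9.43 and 10.4 CPM in control and at 4.24, 2.38 and 2.95 CPM in tumor, with no overlap.

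In a fit with such copies summed, chosen after seeing the data, H2bc23 with H4bc24 had a log2 fold change of -1.61 ± 0.26 (SE) and an edgeR adjusted p of 0.0360, a smaller fall than that of H2bc23 alone. H2ac24 with H2ac23 lay at 10.1, 7.53 and 10.6 CPM in control and at 31.5, 43.9 and 35.1 CPM in tumor. Their sum rose by 1.97 ± 0.19 (SE) on the log2 scale, with an edgeR adjusted p of 0.0236, about as H2ac24 did alone. H2ac18 with H2ac19 fell by 1.44 ± 0.27 (SE), with an edgeR adjusted p of 0.0384. In that fit 7.73% of 15784 genes or sums were called and 3.92% were called lower.

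**Figure D4:**
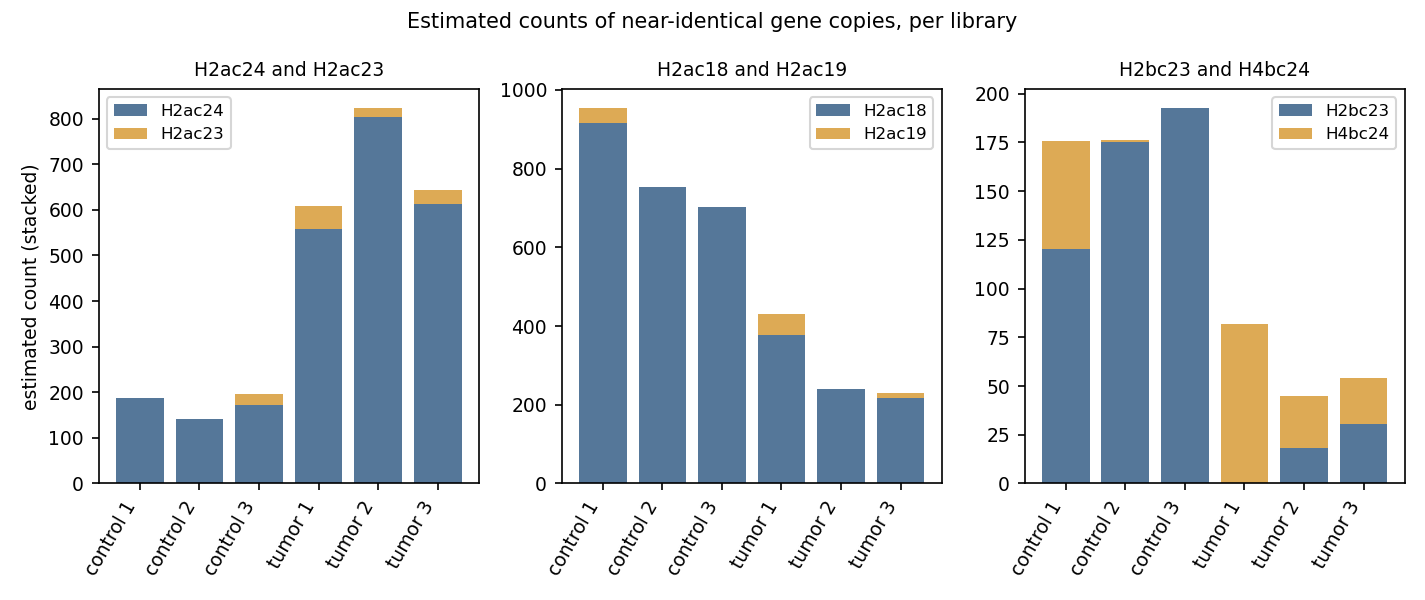
Estimated counts (vertical axis, stacked bars from 0) of 3 pairs of near-identical genes in the 6 libraries. H2ac24 and H2ac18 hold most of the counts of their pairs, while H2bc23 and H4bc24 share theirs differently from library to library.

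Sums over a family do not depend on how reads were divided among its members, and no test was made on them. They can still depend on reads shared with genes that are not members. The H2B sum depends on the split between H2bc23 and H4bc24, and its log2 ratio was -1.19 without and -1.11 with H4bc24. The H2A sum may likewise depend on stretches that H2ac18 shares with Gm20633, and the H3 sum on those that H3c15 shares with Hist2h3c1. For H2A and H3 this was not tested. H1 summed to 29.9 ± 11.3 CPM in control and 9.22 ± 3.40 CPM in tumor (SD, n = 3 each), nearly all of it H1f2. H2B summed to 68.5 ± 6.29 and 30.0 ± 6.41 CPM, H3 to 7.05 ± 1.13 and 2.57 ± 0.187 CPM and H4 to 5.75 ± 1.31 and 2.79 ± 0.826 CPM. H2bc4 made up 61.2% of the H2B sum in control and 47.3% in tumor, and H3c15 74.2% and 55.2% of the H3 sum. H4c9 made up 36.7% and 37.5% of the H4 sum. The H2B and H3 sums thus rest in large part on genes already called. In H1, H2B, H3 and H4 every tumor library lay below every control library, with log2 ratios of -1.70, -1.19, -1.45 and -1.04. The H2A values did not fall into such separate groups: H2A summed to 57.0 ± 7.62 CPM in control and 56.0 ± 4.66 CPM in tumor, the groups overlapped, and the log2 ratio of -0.03 turned to 0.20 in sums of FPKM and to 0.04 without TMM factors. Without H2ac24 and H2ac23, a description since H2ac24 was left out for its rise, H2A summed to 47.6 ± 6.93 and 19.2 ± 5.26 CPM, a log2 ratio of -1.31. H2ac18 made up 74.5% of the H2A sum in control and 26.3% in tumor.

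**Figure D5:**
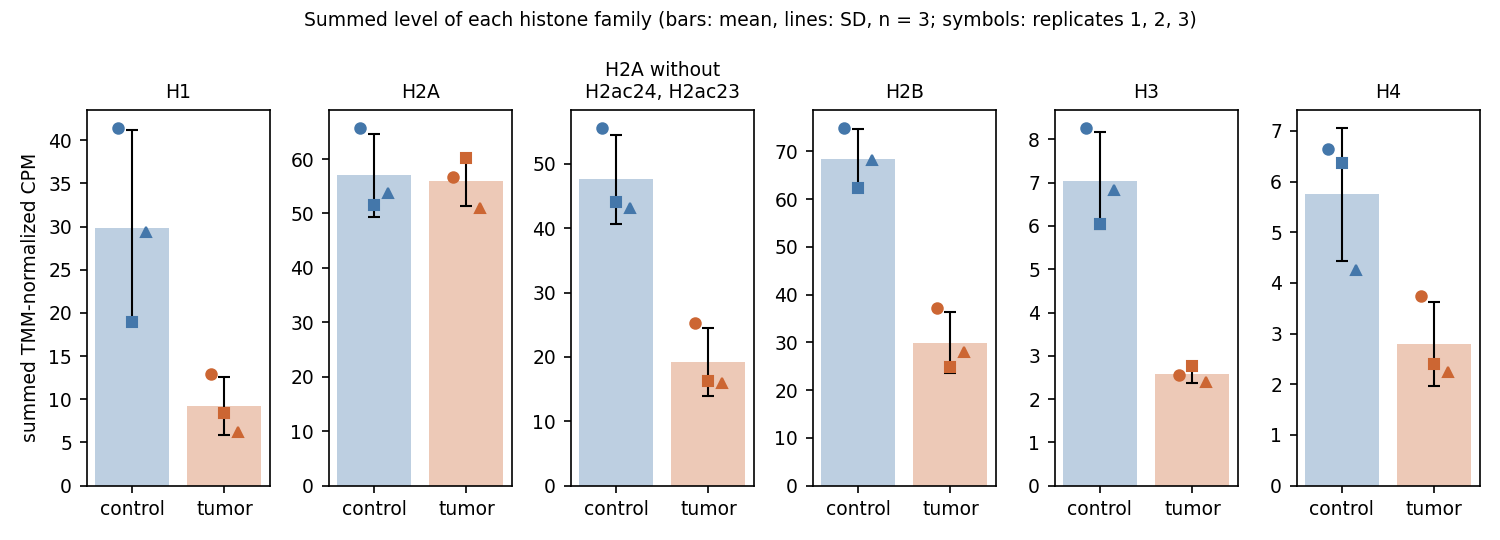
Summed TMM-normalized CPM (vertical axes, each from 0) of each histone family, with bars for the mean of 3 libraries, lines for the SD and symbols for the libraries. H1, H2B, H3 and H4 are lower in every tumor library, H2A overlaps, and H2A without H2ac24 and H2ac23 is again lower.

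Replication-independent histone genes, which are expressed outside S phase and end in poly(A), were counted beside the cluster genes. Of 12 tested, H2aj fell, H1f8 rose and 10 did not pass by edgeR, with a median log2 fold change of -0.17; over all tested genes 3.91% fell and 3.8% rose. H2aj, an H2A variant gene, was measured at 132.2, 98.2 and 103.3 CPM in control and at 57.2, 64.4 and 55.4 CPM in tumor, a fall by 0.91 ± 0.14 (SE) on the log2 scale, at an adjusted p of 0.0343. H1f8, the linker histone of oocytes, was measured at 23.3, 24.7 and 32.7 CPM in control and at 43.1, 42.3 and 45.5 CPM in tumor, a log2 fold change of 0.70 ± 0.15 (SE), at an adjusted p of 0.0441. H1f0, the linker histone of resting cells, had -0.77 ± 0.21 (SE), at an adjusted p of 0.0704. Values below 0 were found for 11 of the 12 genes, all but H1f8. An unadjusted p under 0.05 by edgeR was reached by 5 of the 12, H1f8 among them. The 12 genes together took 1941 to 2385 CPM in control libraries and 1700 to 1835 CPM in tumor libraries. For H2ac24 and H1f8, as for the summed oocyte markers given above, the tumor libraries lay above the control libraries. Of all tested genes 19.8% did so, and a link between these values was not tested.

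Among genes that transcribe histone genes or process their mRNA, 21 were tested. Of these, 2 rose, none fell and 19 did not pass by edgeR, with a median of 0.11, where 3.8% of all tested genes rose and 7.71% were called. Pou2f1, which encodes the octamer factor Oct1, was measured at 17.2, 19.3 and 18.9 CPM in control and at 31.2, 30.7 and 28.1 CPM in tumor, a log2 fold change of 0.70 ± 0.11 (SE), at an adjusted p of 0.0343. Hinfp, which activates H4 genes, had 0.60 ± 0.12 (SE), at an adjusted p of 0.0408, and neither gene was called with the length offset. Npat, the coactivator of the histone locus body, had 0.38, at an adjusted p of 0.0586. Of 26 histone chaperone genes, the oocyte chaperone gene Npm2 rose (0.72 ± 0.12 (SE), adjusted p of 0.0366) and 25 did not pass, with a median of 0.13. That 1 of 26 is near the 3.8% of all tested genes that rose.

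DNA replication genes, which act in the same phase as the cluster genes, gave no call. None of 44 tested passed by edgeR, with 3 at an unadjusted p under 0.05, and the median log2 fold change was 0.09, with 13 of the 44 below 0. DESeq2 called 1 of them. The lowest adjusted p by edgeR was that of Dnmt1, the maintenance DNA methyltransferase gene, with a log2 fold change of 0.38 ± 0.13 (SE) and an adjusted p of 0.105. Summed over the list, control libraries ranged from 1305 to 1928 CPM and tumor libraries from 1556 to 2010 CPM, so the groups overlapped. The groups did not overlap for the summed histone cluster genes or the summed replication-independent histones, both lower in tumor. Nor did they for the summed chaperone genes, at 2957 to 3044 CPM in control and 3197 to 3634 CPM in tumor.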

How the data were processed

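The members and gene lists were chosen with earlier results of these data known. Per the labels' protocols, total RNA of mouse ovary was sequenced as single-end reads of 50 bases; the sources used here do not give RNA selection, strand or the roles of the tools. The build GRCm38.p6 and the tools RSEM 1.2.12, HISAT2 2.0.4 and Bowtie2 2.2.5 are named in the submitters' processing notes. The authors deposited estimated counts per gene and transcript (39.2% of gene counts above 0 were not whole) and FPKM, per the file headers. The authors' deposited table gives their own log2 fold changes with q-values and p-values, per the file headers. A further 36 columns of values per sample were not used.

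Counts were rounded, filtered with filterByExpr and tested with edgeR 4.0.16 (R 4.3.3): TMM factors, robust quasi-likelihood F test, tumor against control over 6 libraries, Benjamini-Hochberg adjustment over 15787 genes, threshold 0.05. CPM are TMM-normalized; SE is the absolute log2 fold change over the square root of F. Alternatives were DESeq2 1.42.0, RLE factors, no filter, limma 3.58.1 on log2(FPKM + 1) and log2(FPKM + 0.1), a replicate block, length and GC offsets, each library left out, and near-identical copies summed. Only the main edgeR fit was run on simulated counts, and the alternatives were not. Members passing the filter could be named; described in full were the called members and the 8 most abundant by FPKM, and of each list up to 4 genes with the smallest p. Library totals of 18278614 to 19238900 set the precision; reads are not independent molecules, so limits cover counting error only.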

Additional observations from a re-analysis of the deposited data

How the results depend on the processing

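The number of called genes depended on the libraries and the test. Of all tested genes, 1217 were called, against 2997 with DESeq2, 357 with the length offset and 776 with the GC offset, added after seeing the data; leaving out a library gave between 0 and 2618, with 3120 genes at an unadjusted p under 0.05 without control replicate 1 and 3741 without tumor replicate 3. Of the histone cluster genes, 4 were called, against 6 with DESeq2, 2 with the length offset, and between 0 and 8 with a library left out. With the replicate block no gene and no histone cluster gene was called (0 in each case; 4233 genes, 8 of them histone cluster genes, had an unadjusted p under 0.05). The labels do not say whether replicate numbers pair the samples. Deviations of same-numbered libraries from their group means correlated at 0.24, -0.21 and 0.53. With 3 libraries per group these values cannot decide the question.

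Over 15 alternatives H2ac18, H2bc4 and H3c15 kept their negative and H2ac24 its positive sign. For H2bc21 the log2 fold change was above 0 with limma on log2(FPKM + 1) (0.032) and log2(FPKM + 0.1) (0.036), the length offset (0.021), and without control replicate 2 (0.0074), control replicate 3 (0.020), tumor replicate 2 (0.020) and tumor replicate 3 (0.057); it lay between -0.145 and 0.057 with a library left out. H2ac19 had -0.88 without tumor replicate 1 and 7.54 without control replicate 1, when both control libraries left were at 0. The log2 ratio of the H2A sum was 0.20 with FPKM, 0.042 without factors, 0.088 without control replicate 1 and 0.037 without tumor replicate 3, and lay between -0.093 and 0.088 with a library left out. The H2B sum moved to -1.46 with FPKM.

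With a count above 0 in place of 3, 25 members were detected in control and 24 in tumor, against 17 and 13. DESeq2, which called 19.0% of all genes, called 5 of 12 replication-independent histones, 5 of 21 transcription and 3′ processing genes, 8 of 26 chaperones and 1 of 44 replication genes. With the replicate block the first 3 lists had 0, and with the length offset the transcription and processing list had 0. With a library left out, calls lay between 0 and 2 for replication-independent histones, 0 and 4 for transcription and processing and 0 and 6 for chaperones. For the 8 members that never reached 3 counts a difference was not detectable at this depth.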

Other observations

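Histone genes whose symbols fall outside the rule had counts of their own. H2aw was counted at 288.1, 224.2 and 249.6 in control and at 182.5, 161.2 and 145.3 in tumor, so that every tumor library lay below every control library. H2bu2 and H4f16 reached no more than 6.99 and 6 counts in any library. H2aw, whose older name is Hist3h2a, had a log2 fold change of -0.66 ± 0.17 (SE) and an edgeR adjusted p of 0.0639, so it did not pass, and H2bu2 and H4f16 did not pass the filter on low counts.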
